A study of Arabidopsis thaliana with 6 samples.

Results

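The comparison described here sets leaves of the lsm1a lsm1b double mutant of Arabidopsis thaliana (the mutant) against leaves of its reference accession Col-0 under drought imposed by polyethylene glycol (PEG), an osmotic agent that withholds water from roots. It rests on 2 of the 6 RNA sequencing libraries of the series. The lsm1a lsm1b PEG library came from leaves of mutant plants moved from plates of GM medium to plates with 55% PEG for 10 h at an age of 2 weeks. The Col-0 PEG library came from Col-0 plants of the same age, treatment and duration, so the agent is common to both groups. The mutant alleles, the number of plants per library and the number of independent lines are not given in the sources used here, and plants without stress were not analysed here. The other 4 libraries are an lsm1a lsm1b and a Col-0 library from plates with 150 mM NaCl for 10 h and an lsm1a lsm1b and a Col-0 library from soil-grown plants kept at 4 °C for 24 h. Genes were matched between the PEG libraries by locus code, and those with at least 5 CPM (counts per 1000000 counts of the scaled library) in the higher library were described. This level limit kept 15070 of the 18734 genes listed for PEG, in a series that lists 20297 genes.

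LSM1A and LSM1B encode the interchangeable first subunit of the cytoplasmic LSM1-7 ring. The ring binds the end of mRNAs whose poly(A) tail has been shortened and promotes removal of the cap, after which the exonuclease XRN4 degrades the transcript. Under osmotic drought, plants accumulate abscisic acid (ABA), dehydrins and other late embryogenesis abundant (LEA) proteins, and compatible solutes, and they adjust aquaporins, the membrane channels through which cells take up and lose water.

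With 1 library per genotype, no spread between samples was available, and every ratio below compares 2 libraries and has no p-value. The lsm1a lsm1b library held 18043773 counts and the Col-0 library 20527483 counts over the listed genes. Ratios are given as log2 of lsm1a lsm1b over Col-0 after TMM scaling, which sets the bulk of genes near 0. A prior count of 2 was added, which draws ratios of low counts toward 0. The bracketed range beside a ratio is the 95% counting interval of the scaled counts without that prior. The range covers counting error only. In whole leaves, fewer cells of a type and less RNA per cell cannot be told apart.

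The libraries had to differ at least 2-fold for a gene to count as higher or lower. Of the 15070 genes, 542 (3.60%) were higher in lsm1a lsm1b and 550 (3.65%) were lower, and the median log2 ratio was -0.00. At a 4-fold difference 136 genes were higher and 87 lower, at 8-fold 61 higher and 36 lower, and at 32-fold 15 higher and 13 lower. With total counts in place of TMM scaling the median log2 ratio shifted by 0.103 toward lsm1a lsm1b, and the share of higher genes among those counted became 61.2%, against 49.6%. Among the 108 genes with at least 1000 CPM, 4 were higher and 5 lower. Of the counted genes 104 overlap another gene, where reads cannot be told apart without strand, among them DELTA-TIP, BGLU19, MFT, OLEO1, AT4G14090, EGY3, CLPB3, ProT3 and ABR1. Just inside the level limit, CYP76C6 (94 counts in lsm1a lsm1b, 8 in Col-0) and AT1G31790 (94 in the mutant and 79 in Col-0) had 5.03 CPM in the higher library. Just outside it, AT5G14230 (46 counts in lsm1a lsm1b, 99 in Col-0) and AT4G23900 (81 in the mutant and 99 in Col-0) had 4.99 CPM.

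**Figure D1:**
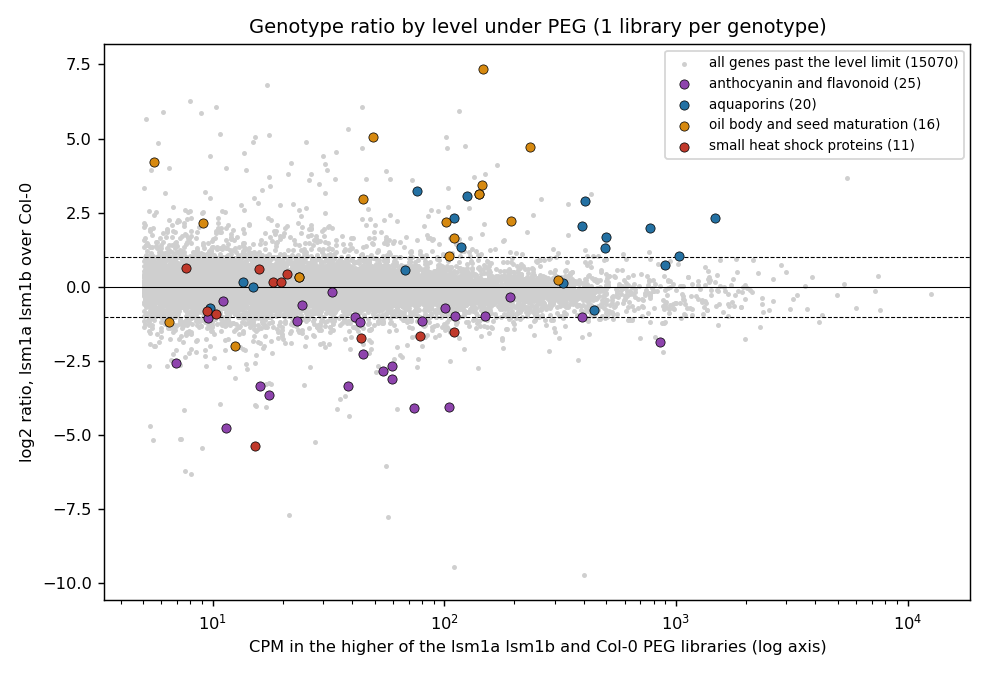
Log2 ratio of lsm1a lsm1b over Col-0 under PEG (y axis) against CPM in the higher library (x axis, log scale) for the 15070 genes past the level limit, 1 library per genotype, with dashed lines at a 2-fold difference. Most regulator, early flavonoid and late anthocyanin genes (4 of 7, 5 of 8 and 9 of 10) and some small heat shock genes lie below the lower line. Aquaporin and seed-maturation genes lie mostly above the upper one, up to 7.34 for M17.

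Counts of the mutated genes come first, as a check of the labels. On TAIR10 chromosome 1 (6608115 to 6609369, plus strand), LSM1A (AT1G19120) had 26 counts in lsm1a lsm1b and 246 in Col-0, a log2 ratio of -3.06 [-3.80 to -2.57]. LSM1A overlaps AT1G19130, and without strand information reads in the shared stretch cannot be told apart. LSM1B (AT3G14080, chromosome 3, 4667365 to 4669194, plus strand) had 98 counts in lsm1a lsm1b and 207 in Col-0, a ratio of -0.98 [-1.35 to -0.64], just short of a 2-fold difference. In cold both genes were lower, at -3.95 for LSM1A and -1.73 for LSM1B. In NaCl LSM1A was also lower in the library labelled lsm1a lsm1b, at -4.45. LSM1B alone was on the other side there, with 439 counts in that library and 195 in Col-0 (0.999). The label of that library was not tested, and every NaCl ratio below is that of the library as labelled. Among 23 genes of the LSM ring and of decapping, LSM3A, another subunit of the ring, had 824 counts in lsm1a lsm1b and 405 in Col-0 (1.11). SOV, an exonuclease that degrades mRNA from its tail end, had 2931 counts in the mutant and 1319 in Col-0 (1.24). Leaving aside these 2 and LSM1A, 20 members were within 2-fold, including the decapping enzyme gene DCP2 (0.30), DCP5 (-0.36) and XRN4 (-0.21). Over all genes 3.60% were higher and 3.65% lower.

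Most aquaporin genes of the tonoplast and plasma membrane lists were higher in lsm1a lsm1b. Tonoplast and plasma membrane together had 20 aquaporins past the level limit, and 12 of them were higher and 0 lower, with a median of 1.32, against 3.60% higher among all genes. By product name, a grouping made after the values were seen, 25 aquaporins passed the limit, with 13 higher, 1 lower (NLM1, -1.57) and a median of 1.03. In the tonoplast (TIP) family, whose members carry water across the vacuole membrane, 6 of 8 were higher and the median was 2.01. TIP2;3 had 1422 counts in lsm1a lsm1b and 159 in Col-0 (3.23 [3.01 to 3.49]), and TIP2;2 had 2333 in the mutant and 297 in Col-0 (3.05). GAMMA-TIP, the most abundant of them per length at 1390 RPKM in lsm1a lsm1b and 275 RPKM in Col-0, had 27505 counts in the mutant and 5771 in Col-0 (2.34 [2.30 to 2.38]). The remaining higher members were the seed-type TIP3;1 (3.14), TIP2 (1.68) and DELTA-TIP (1.34), whereas TIP3;2 (0.34) and TIP4;1 (0.00) were within 2-fold. All members of the tonoplast list together made 0.255% of counts in lsm1a lsm1b and 0.0545% in Col-0.

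In the plasma membrane (PIP) family, which sets the water permeability of the cell surface, 6 of 12 members were higher and the median was 0.89. PIP2B had 7568 counts in lsm1a lsm1b and 1069 in Col-0 (2.91 [2.82 to 3.003]). RD28, named for its response to desiccation, had 2062 in the mutant and 434 in Col-0 (2.33), PIP1A 7307 in the mutant and 1863 in Col-0 (2.06) and PIP2A 14384 in the mutant and 3847 in Col-0 (1.99). PIP1C (1.30) and PIP1B (1.03) completed the higher members, and PIP2E (-0.77) and PIP2;8 (-0.72) had the lowest ratios. PIP2B and RD28 are close copies of each other, so reads could have been split between them. The same ratios in the other stresses, each against its own Col-0 library, were 3.76 in NaCl and 2.59 in cold for PIP2B, and 2.62 and 2.24 for GAMMA-TIP. The tonoplast list had 8 of 8 members higher in NaCl, where 5.50% of all genes were, and 2 of 4 in cold, where 8.26% were. Of 12 plasma membrane members, 6 were higher and 1 lower in NaCl. In cold 3 of 12 were higher and 0 lower, with a median of 0.57.

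**Figure D2:**
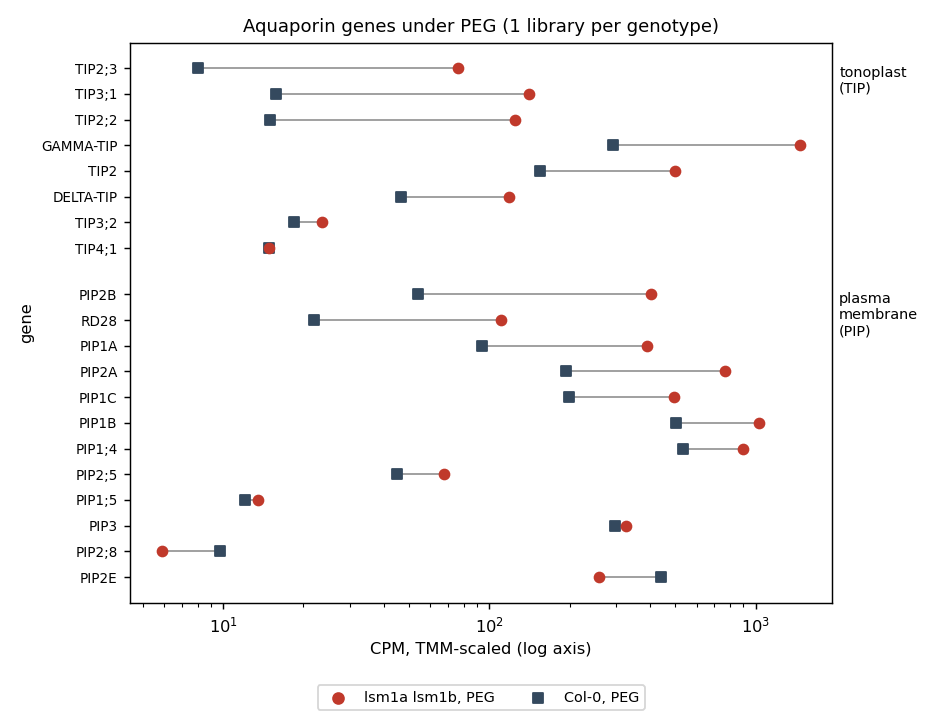
CPM (x axis, log scale) of each tonoplast and plasma membrane aquaporin gene past the level limit in the lsm1a lsm1b PEG library (red circles) and the Col-0 PEG library (dark squares), 1 library each. The circle lies right of the square by at least 2-fold in 12 of the 20 genes, and left of it by less than 2-fold in PIP2E and PIP2;8.

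Genes of seed maturation and oil bodies stood on the higher side, although the tissue is leaf. Of 16 members past the level limit, 12 were higher and 2 lower, with a median of 2.20. Among all genes 3.60% were higher and 3.65% lower. TIP3;1 is also in the tonoplast list above, and BGLU19 is also in the glucosinolate hydrolysis list below. M17, a glycine-rich LEA gene of maturing seeds, had 2754 counts in lsm1a lsm1b and 16 in Col-0 (7.34 [6.81 to 8.32]). DELTA-VPE, a vacuolar protease of the seed coat, had 915 counts in the mutant and 27 in Col-0 (5.07), and BGLU19, a beta-glucosidase, had 4380 in the mutant and 176 in Col-0 (4.71). PER1, a peroxiredoxin of dormant seeds, had 2720 in the mutant and 263 in Col-0 (3.45), and M10, a second LEA gene, had 104 in the mutant and 4 in Col-0 (4.21). ABI3, the transcription factor that drives seed maturation, was low in both libraries, with 169 counts in lsm1a lsm1b and 39 in Col-0 (2.14 [1.69 to 2.74]). MFT, a regulator of germination, had 1897 in the mutant and 440 in Col-0 (2.19). The glyoxylate cycle genes MLS (2.95) and ICL (1.65), which turn stored oil into sugar, and the oleosin genes OLEO2 (2.21) and OLEO1 (1.05) were also higher. OLEO4 (57 counts in lsm1a lsm1b, 248 in Col-0, -1.999) and the caleosin gene CLO1 (52 in the mutant and 128 in Col-0, -1.18) were lower, so the oil body genes did not move as one.

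The seed storage proteins differed in both directions. Of 9 genes 2 were higher and 5 lower, against 3.60% higher and 3.65% lower among all genes. The cruciferin genes CRA1 (6353 counts in lsm1a lsm1b, 1984 in Col-0, 1.76) and CRU3 (7584 in the mutant and 3381 in Col-0, 1.25) were higher, and the third cruciferin, CRU2 (52 in the mutant and 738 in Col-0, -3.69), was lower. Of the 2S albumin genes SESA4 (35 in the mutant and 683 in Col-0, -4.13), SESA3 (218 in the mutant and 1504 in Col-0, -2.69), SESA1 (245 in the mutant and 1281 in Col-0, -2.29) and SESA2 (683 in the mutant and 1583 in Col-0, -1.12) were lower, and SESA5 (361 in the mutant and 422 in Col-0, -0.14) was within 2-fold. SESA1 to SESA4 lie side by side and are alike in sequence, so reads may have been split among them. The storage genes were found in both libraries: they made 0.0878% of the counts in lsm1a lsm1b and 0.0576% in Col-0. In NaCl all 6 storage genes past the level limit were higher in the library as labelled. The part that seed material in a library had in these values was not tested.

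**Figure D3:**
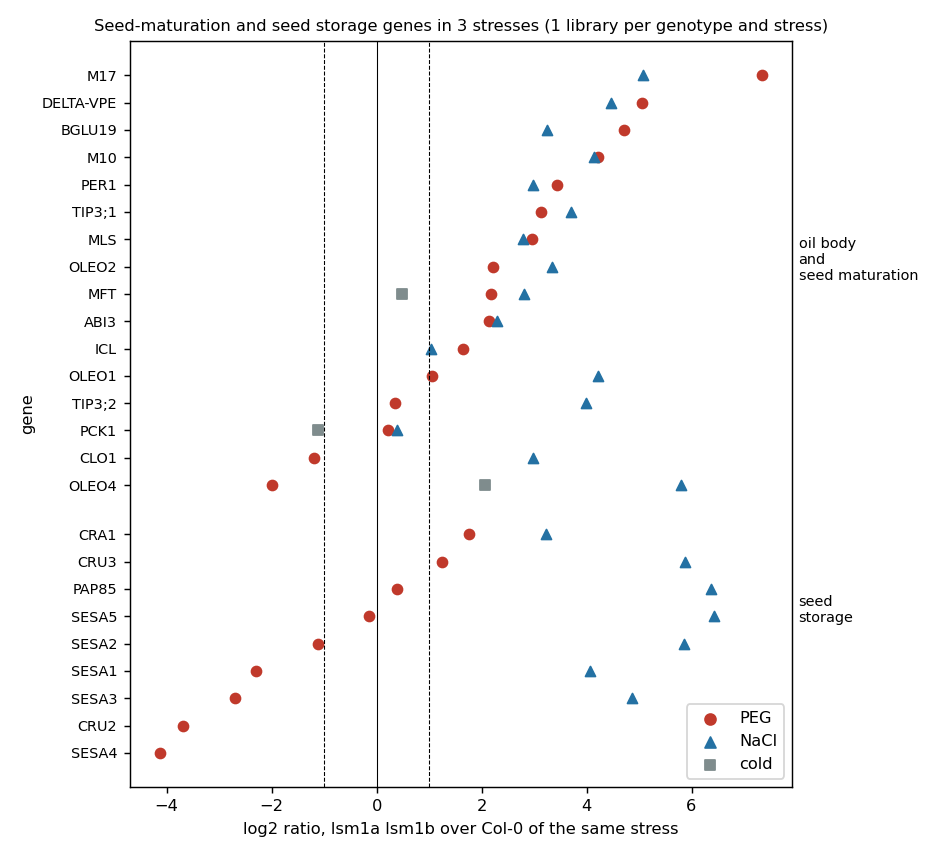
Log2 ratios of lsm1a lsm1b over Col-0 (x axis) for each seed-maturation or oil body gene and each seed storage gene past the level limit in PEG, shown for PEG (red circles), NaCl (blue triangles) and cold (grey squares) where the gene was listed, 1 library per genotype and stress; dashed lines mark a 2-fold difference. Most maturation genes lie to the right in both PEG and NaCl, while SESA1, SESA2 and SESA3 lie to the left in PEG and to the right in NaCl.

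Upstream stretches of a pair of these genes are printed because 12 of the 16 maturation and oil body genes were higher and many carry letters known to be bound by ABI3-type and ABA-responsive factors. Windows of 250 bases before the transcript start given in the files were read from the TAIR10.1 genome, and only bases outside every annotated exon are shown. Capitals mark the ABA-responsive element ACGTGNC and the RY element CATGCA, on either strand. The printed OLEO1 stretch holds both elements, and that of PER1 holds only the ABA-responsive element. The OLEO1 stretch is chr4:12900180-12900429 (TAIR10.1, plus strand) and that of PER1 is chr1:17780252-17780428 (plus strand).
OLEO1: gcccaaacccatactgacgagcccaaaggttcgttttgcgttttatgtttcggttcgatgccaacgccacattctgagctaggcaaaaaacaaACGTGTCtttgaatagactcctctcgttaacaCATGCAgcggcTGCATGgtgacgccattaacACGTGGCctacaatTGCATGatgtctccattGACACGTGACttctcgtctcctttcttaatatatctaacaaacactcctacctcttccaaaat
PER1: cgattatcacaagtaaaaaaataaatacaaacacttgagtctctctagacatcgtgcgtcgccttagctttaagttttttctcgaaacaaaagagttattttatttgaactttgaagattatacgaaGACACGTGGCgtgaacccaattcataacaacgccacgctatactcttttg
The RY element was in the windows of 11 of the 16 maturation and oil body genes (68.8%), and in 6.23% of the windows of all 14977 nuclear genes past the level limit. The ABA-responsive element was in 7 of 16 (43.8%), against 13.4% of all. Among the LEA and dehydrin genes, most of which were within 2-fold, the ABA-responsive element was in 19 of 29 windows (65.5%) and the RY element in 4 (13.8%). Among all 541 higher nuclear genes 12.6% held the RY element, and among all 528 lower ones 12.7%.

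Anthocyanin synthesis showed the opposite side, and was graded along the pathway. Across its 4 lists, from regulators to vacuolar transport, 20 of 33 genes past the level limit were lower in lsm1a lsm1b and 0 higher. Among the late enzymes, which make the coloured pigments, and the genes that decorate and transport them, 9 of 10 were lower, with a median of -3.23, against 3.65% lower among all genes. DFR, dihydroflavonol reductase, had 117 counts in lsm1a lsm1b and 2081 in Col-0 (-4.04 [-4.35 to -3.80]). LDOX, which acts next, had 79 in the mutant and 1465 in Col-0 (-4.09), and GSTF12, the carrier of pigments to the vacuole, had 69 in the mutant and 763 in Col-0 (-3.35). Lower, too, were the acyltransferase genes AT5MAT (24 in the mutant and 345 in Col-0, -3.66), AT1G03940 (174 in the mutant and 1179 in Col-0, -2.66) and AT1G03495 (172 in the mutant and 883 in Col-0, -2.26). The sugar transferase genes UF3GT (28 in the mutant and 318 in Col-0, -3.33) and AT4G14090 (126 in the mutant and 1181 in Col-0, -3.12) were similarly placed. SCPL10 (357 in the mutant and 855 in Col-0, -1.17) was nearer to the limit, and only BGLU10 (2808 in the mutant and 3789 in Col-0, -0.35) of this list was within 2-fold.

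Of the early flavonoid enzymes, shared with colourless flavonols, 5 of 8 were lower, with a median of -1.01; with total counts UGT78D1, TT7 and F3H came within 2-fold, which left 2 of 8 lower. TT4, chalcone synthase, had 4389 counts in lsm1a lsm1b and 16848 in Col-0 (-1.85 [-1.90 to -1.81]). CHIL (-1.14), UGT78D1 (-1.05), TT7 (-1.02) and F3H (-1.004) lay close to the 2-fold limit, and UGT78D2, FLS1 and TT5 were between -0.997 and -0.70. At the phenylpropanoid entry 2 of 8 genes were lower, PAL3 (21 counts in the mutant and 131 in Col-0, -2.45) and 4CL3 (158 in the mutant and 463 in Col-0, -1.45). The more abundant PAL1 (-0.58), PAL2 (-0.48) and C4H (-0.89) were within 2-fold. Of the regulators, TT8, the bHLH partner of the pigment MYB factors, had 6 counts in lsm1a lsm1b and 227 in Col-0 (-4.76 [-6.62 to -4.01]). MYB90 had 139 in the mutant and 1074 in Col-0 (-2.85), MYB75 194 in the mutant and 460 in Col-0 (-1.15), and TTG2 20 in the mutant and 137 in Col-0 (-2.58). MYB75 and MYB90 are close relatives, and reads could be shared. TTG1 (-0.18), the scaffold of the complex, the repressor MYBL2 (-0.49) and MYB12 (-0.60), which drives flavonols, were within 2-fold. The late list had 8 of 10 members lower in NaCl (median -2.38), where 4.46% of all genes were lower, and 0 of 10 in cold (median -0.08), where 5.13% were.

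The stretch upstream of DFR is shown as the example of a late pathway gene, chr5:17166033-17166168 (TAIR10.1, minus strand), read 5′ to 3′ and outside annotated exons. Capitals mark the G-box CACGTG and the AC element ACCNACC, letters known to be bound by bHLH and MYB factors.
DFR: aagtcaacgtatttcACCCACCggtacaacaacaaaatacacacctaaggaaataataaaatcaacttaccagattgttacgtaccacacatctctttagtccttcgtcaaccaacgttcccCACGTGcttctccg
The AC element was in the windows of 4 of the 10 late genes (40%) and 4 of the 8 early genes (50%), against 7.31% of all nuclear genes past the level limit. The G-box was in 3 of 10 (30%) and 3 of 8 (37.5%), against 10.2% of all. The ABA-responsive element can overlap the G-box, as both hold ACGTG.

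**Figure D4:**
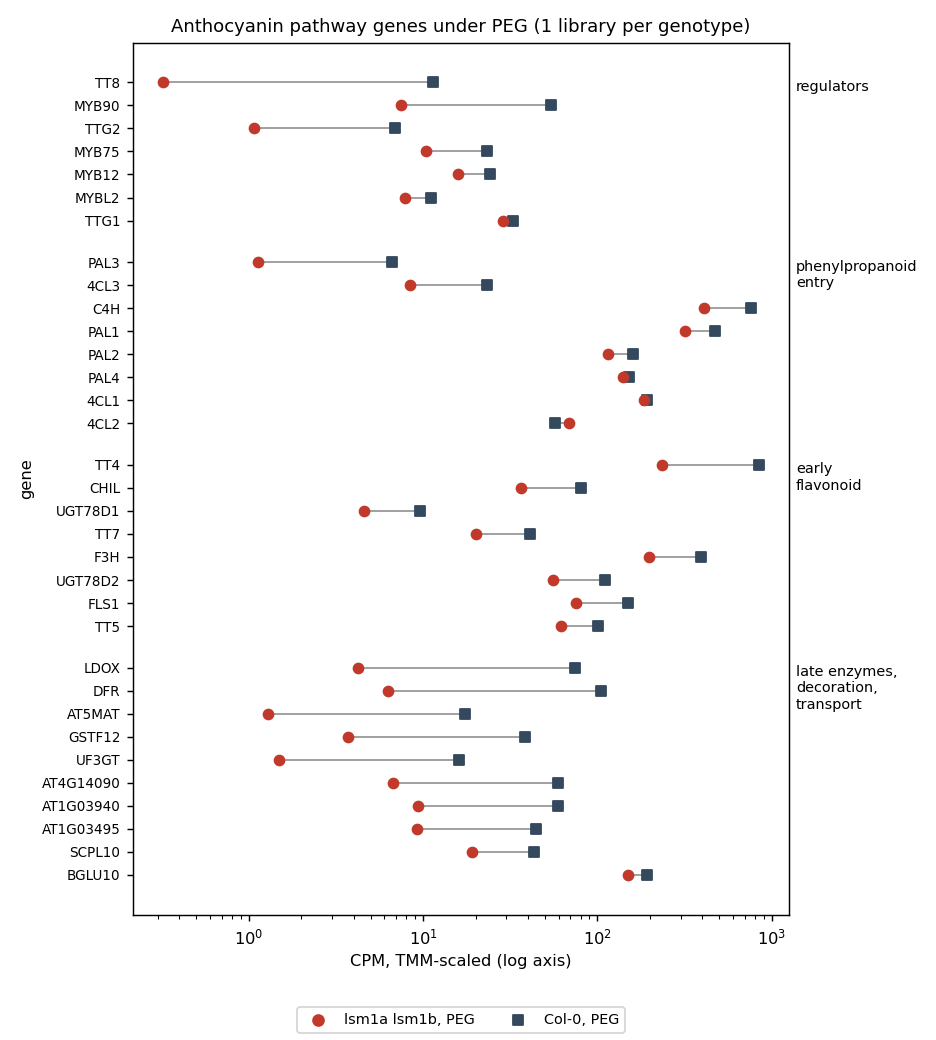
CPM (x axis, log scale) of each anthocyanin pathway gene past the level limit in the lsm1a lsm1b PEG library (red circles) and the Col-0 PEG library (dark squares), 1 library each, grouped from regulators to late enzymes. The gap is wide in TT8 and most late genes, with LDOX at 4.23 CPM in lsm1a lsm1b and 73.9 CPM in Col-0, and narrow in TTG1, PAL4 and 4CL1.

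Several heat-inducible chaperone genes were also lower. HSP21, a small chaperone of the chloroplast, had 5 counts in lsm1a lsm1b and 302 in Col-0 (-5.37 [-7.46 to -4.59]). Of 11 small heat shock genes, 4 were lower and 0 higher, against 3.65% lower among all genes. Their median was -0.80, with 6 ratios below 0 and 5 above. HSP22 had 463 counts in the mutant and 1560 in Col-0 (-1.66), HSP17.4 had 715 in the mutant and 2171 in Col-0 (-1.51), and HSP17.6A had 247 in the mutant and 868 in Col-0 (-1.72). The other 7 ranged from -0.91 (AT5G37670) to 0.62 (AT1G53540). Among 21 large chaperones and heat factors, 3 were lower and 0 higher, with a median of -0.37. EGY3, a chloroplast membrane protein, had 1280 counts in the mutant and 7507 in Col-0 (-2.46). HSP70B had 480 in the mutant and 1632 in Col-0 (-1.68), and CLPB3 had 2503 in the mutant and 5812 in Col-0 (-1.13). The abundant HSP70 (24444 in the mutant and 47046 in Col-0, -0.86) and the heat factor gene HSFA2 (192 in the mutant and 105 in Col-0, 0.94) stayed within 2-fold on opposite sides.

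The upstream stretch of HSP21, chr4:13819972-13820221 (TAIR10.1, minus strand), is shown with the heat shock element GAANNTTC in capitals, as this gene had the lowest ratio of the chaperones.
HSP21: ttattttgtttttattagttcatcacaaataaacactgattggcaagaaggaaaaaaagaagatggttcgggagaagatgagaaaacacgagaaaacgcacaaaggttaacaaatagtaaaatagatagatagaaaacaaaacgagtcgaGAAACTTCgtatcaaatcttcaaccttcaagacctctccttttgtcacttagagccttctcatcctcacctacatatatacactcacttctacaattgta
The element was in 5 of 11 windows of the small heat shock list (45.5%) and 10 of 21 of the large chaperone list (47.6%), against 9.53% of all nuclear genes past the level limit.

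The early light-induced proteins ELIP1 and ELIP2, which bind chlorophyll in plastids under light stress, were lower in PEG and within 2-fold in NaCl and cold. ELIP1 had 3560 counts in lsm1a lsm1b and 17355 in Col-0 (-2.20 [-2.25 to -2.15]), and ELIP2 had 388 in the mutant and 2773 in Col-0 (-2.75). Their ratios were -0.15 and 0.22 in NaCl and 0.34 and -0.23 in cold. By a search made after the values were seen, 3 genes were at least 4-fold apart in PEG and within 1.5-fold in both other stresses: ELIP1, ELIP2 and AT1G17970, a RING/U-box gene (454 counts in the mutant and 116 in Col-0, 2.04). The difference between stresses was not tested. The other 6 members of the photoprotection list, with NPQ4 (0.01) and VDE1 (0.40) among them, were within 2-fold.

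Most genes of the ABA and drought response were within 2-fold, as were 13978 of all 15070 genes past the level limit. The shares over all genes were 3.60% higher and 3.65% lower. RAB18, the most abundant of the LEA and dehydrin genes per length at 12294 RPKM in lsm1a lsm1b and 14622 RPKM in Col-0, had 198442 counts in lsm1a lsm1b and 250471 in Col-0 (-0.25). Of 29 LEA and dehydrin genes 25 were within 2-fold, among them COR47 (-0.15), ERD10 (0.09), LTI78 (-0.41) and LEA7 (0.38). COR15A, a chloroplast-protecting LEA protein, had 34128 counts in the mutant and 82024 in Col-0 (-1.18), and AT5G66780 had 524 in the mutant and 2408 in Col-0 (-2.11). The dehydrin gene AT4G38410 (627 in the mutant and 51 in Col-0, 3.65) and the LEA gene AT3G53040 (1662 in the mutant and 572 in Col-0, 1.62) were higher. Of 23 ABA and drought transcription factors and targets, 18 were within 2-fold, including RD22 (0.04), HB7 (-0.05), ABF2 (0.00) and RD26 (-0.28). The 4 that were higher were the ERF-family gene AT4G28140 (579 in lsm1a lsm1b, 38 in Col-0, 3.94), ERF53 (329 in the mutant and 31 in Col-0, 3.41), MYB2 (94 in the mutant and 32 in Col-0, 1.58) and NAC019 (469 in the mutant and 230 in Col-0, 1.11). AFP3, a negative regulator of ABA signalling, was lower (2331 in the mutant and 5413 in Col-0, -1.13).

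Of 11 genes of ABA synthesis, release and breakdown past the level limit, 3 were lower, 0 higher and 8 within 2-fold. Their median was -0.62, and 3.65% of all genes were lower. NCED3, the rate-limiting enzyme of ABA synthesis in drought, had 7202 counts in lsm1a lsm1b and 13091 in Col-0 (-0.78 [-0.82 to -0.73]), within the 2-fold limit. Its relative NCED9 had 17 in the mutant and 126 in Col-0 (-2.67). BGLU18, which frees ABA from its glucose ester, had 347 in the mutant and 2103 in Col-0 (-2.51), and BGLU33 had 109 in the mutant and 431 in Col-0 (-1.88). NCED5 did not reach the level limit, with 47 counts in the mutant and 2 in Col-0. Of 19 receptors, phosphatases and kinases of ABA signalling, HAB1 was lower (3757 in the mutant and 8281 in Col-0, -1.05) and 18 were within 2-fold, with HAI1 (-0.81), ABI1 (-0.02) and OST1 (-0.01) among them.

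Genes of solutes, wall, growth hormones and ion transport differed in part of most lists. For comparison, 3.60% of all genes were higher and 3.65% lower. ProT3, a proline transporter, had 261 counts in lsm1a lsm1b and 16 in Col-0 (3.95), whereas P5CS1, the main enzyme of stress-induced proline synthesis, had 28081 in the mutant and 39297 in Col-0 (-0.40). Of this list of 17, 2 were higher and 5 lower, including the plastid sugar carrier gene GPT2 (237 in the mutant and 1301 in Col-0, -2.36), the inositol synthase gene MIPS1 (2645 in the mutant and 8356 in Col-0, -1.57) and RS2 (11704 in the mutant and 29959 in Col-0, -1.27). All 17 starch genes were within 2-fold. Of 16 expansin and XTH genes, which loosen cell walls, 4 were higher, namely EXPA4 (1529 in the mutant and 389 in Col-0, 2.05), EXPB3 (1.84), XTH19 (1.16) and EXPA10 (1.12), and XTH30 (-1.16) was lower. Of 16 auxin and gibberellin genes, 6 were lower, among them GA3OX1, which makes active gibberellin (57 in the mutant and 304 in Col-0, -2.29), and IAA3 (123 in the mutant and 379 in Col-0, -1.52), and GASA6 (292 in the mutant and 42 in Col-0, 2.82) was higher. Among 19 ion transport genes, the guard-cell potassium channel gene GORK (1047 in the mutant and 341 in Col-0, 1.70) and the vacuolar exchanger genes CAX3 (3335 in the mutant and 1201 in Col-0, 1.56) and CAX1 (2188 in the mutant and 1134 in Col-0, 1.03) were higher and 0 lower. NIA2, nitrate reductase, had 3960 counts in the mutant and 13819 in Col-0 (-1.72).

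The medians of the nuclear photosystem list and of the chloroplast-encoded genes lay on opposite sides of 0. Of 27 nuclear genes for photosystems, electron transport and Rubisco, RBCS3B (18841 counts in lsm1a lsm1b, 9415 in Col-0, 1.09) was higher and 26 were within 2-fold, with a median of 0.33. Of 82 chloroplast-encoded genes, 22 were lower and 0 higher, against 3.65% lower and 3.60% higher among all genes. All 82 ratios were below 0, with a median of -0.74. These genes made 2.05% of counts in lsm1a lsm1b and 3.18% in Col-0. The lowest was ATCG01070, with 38 counts in the mutant and 142 in Col-0 (-1.765), and the same list had a median of 0.19 in NaCl and -0.09 in cold. Among 18 antenna genes, LHCB2.1 (4255 in the mutant and 1265 in Col-0, 1.83) and its copy AT2G05070 (3367 in the mutant and 1181 in Col-0, 1.60) were higher, and LHB1B1 (1762 in the mutant and 6178 in Col-0, -1.72) and LHCB4.1 (6352 in the mutant and 15263 in Col-0, -1.18) lower. The median of this nuclear list was -0.12, with 11 ratios below 0 and 7 above. The RBCS genes and the LHCB1 and LHCB2 copies are nearly identical within each family, so their single values are uncertain.

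Defence genes were mixed. Of 13 salicylic acid and defence genes past the level limit 3 were higher and 0 lower: PR5, a thaumatin-like pathogenesis protein (408 counts in lsm1a lsm1b, 22 in Col-0, 4.18), WRKY46 (181 in the mutant and 22 in Col-0, 3.01) and WRKY28 (365 in the mutant and 55 in Col-0, 2.77). By product name, 7 of 36 WRKY factors and 7 of 49 NAC factors were higher, where 3.60% of all genes were, with 1 lower in each family. Of 57 bHLH factors 0 were higher and 5 lower, where 3.65% of all genes were lower. Among 16 jasmonate genes 4 were lower, JAZ9 (26 in the mutant and 151 in Col-0, -2.37), JRG21 (30 in the mutant and 157 in Col-0, -2.23) and the vegetative storage proteins VSP2 (4702 in the mutant and 16091 in Col-0, -1.69) and VSP1 (1736 in the mutant and 4622 in Col-0, -1.33). LOX2 (7701 in the mutant and 4009 in Col-0, 1.03) was the higher one. Of 17 ethylene and ERF genes 4 were higher, ERF105 (1.64), ERF11 (1.15), ABR1 (1.12) and ACO4 (1.07), and ACS7 (-1.19) was lower.

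Glucosinolates, sulfur-containing defence compounds of the cabbage family, had genes of breakdown on both sides. Of 13 hydrolysis genes 3 were higher and 3 lower, where 3.60% of all genes were higher and 3.65% lower. NSP2, a nitrile specifier protein of seeds, had 283 counts in lsm1a lsm1b and 7 in Col-0 (5.06), and the lectin gene AT3G21380 had 2302 in the mutant and 88 in Col-0 (4.76). MBP2, a myrosinase-binding protein, had 6 in the mutant and 149 in Col-0 (-4.16), and the myrosinase gene TGG2 had 1577 in the mutant and 3944 in Col-0 (-1.24). BGLU19 and BGLU18, given above, complete these counts. In synthesis, 1 of 11 aliphatic genes, FMOGS-OX3 (246 in the mutant and 956 in Col-0, -1.86), and 2 of 17 indole genes, IGMT4 (796 in the mutant and 3549 in Col-0, -2.07) and PAD3 (35 in the mutant and 130 in Col-0, -1.75), were lower and 0 higher. IGMT4 has close neighbouring copies that could share reads.

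Among 13 clock genes 3 were higher and 1 lower, where 3.60% of all genes were higher and 3.65% lower. CCA1 (127 counts in the mutant and 389 in Col-0, -1.51) was lower. PRR7 (1.07), COR27 (1.07) and CDF1 (1.01) were higher, close to the 2-fold limit. Among 18 oxidative stress genes GSTU11 (413 in the mutant and 61 in Col-0, 2.80) was higher and GSTU25 (374 in the mutant and 1588 in Col-0, -1.99) and APX2 (45 in the mutant and 129 in Col-0, -1.40) were lower. Of 17 wax and cutin genes DCF (304 in the mutant and 32 in Col-0, 3.25) was higher, and of 16 senescence and dark-inducible genes DIN10 (1277 in the mutant and 418 in Col-0, 1.69). Of 11 mitochondria-encoded genes 1 was higher and 0 lower.

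**Figure D5:**
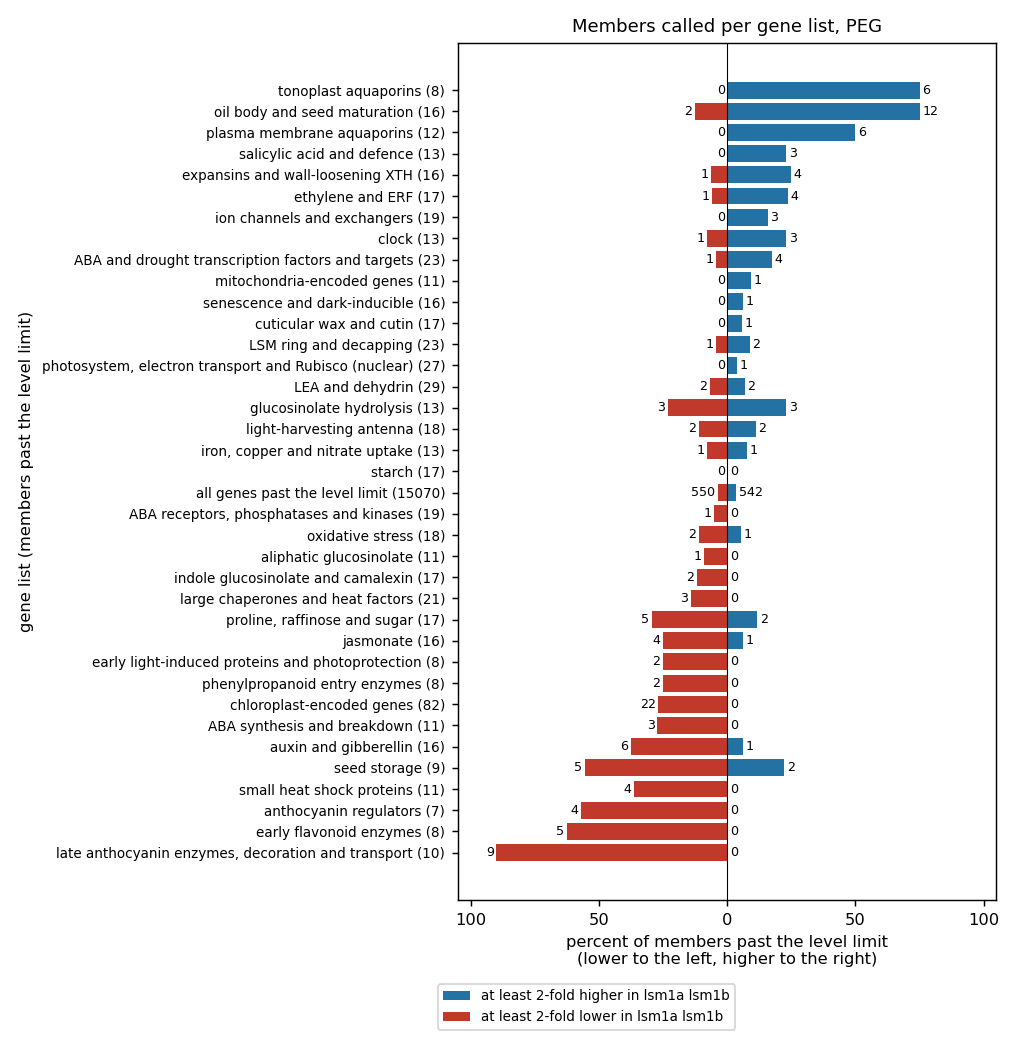
Percent of the members past the level limit (number in brackets) that were at least 2-fold higher (blue, right) or lower (red, left) in lsm1a lsm1b under PEG, for gene lists with at least 7 such members and for all 15070 genes; numbers at the bars are gene counts. Aquaporin and seed-maturation lists reach the farthest right and the late anthocyanin list the farthest left.

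Apart from the seed genes given above, markers of other organs and cell types were mostly low or within 2-fold. Of 8 root markers 6 passed the level limit, 5 were within 2-fold, and the iron transporter gene IRT1 was higher (126 counts in lsm1a lsm1b, 35 in Col-0, 1.87). The root markers summed to 1502 CPM in lsm1a lsm1b and 1619 CPM in Col-0, nearly all from BGLU23 (26036 counts in the mutant and 29671 in Col-0). None of 5 flower markers was listed. Of 4 shoot meristem markers only KNAT1 (343 in the mutant and 302 in Col-0, 0.27) passed, and of 5 guard-cell markers KAT1 (284 in the mutant and 171 in Col-0, 0.81) and FMA (107 in the mutant and 156 in Col-0, -0.45). The leaf label can be set beside the antenna genes, which made 0.840% of counts in lsm1a lsm1b and 0.986% in Col-0.

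The most abundant of the 10 highest ratios among genes with at least 100 CPM was that of CSR1, acetolactate synthase, the first enzyme of branched-chain amino acid synthesis and the target of sulfonylurea herbicides (chromosome 3, 18001312 to 18003581, minus strand). CSR1 had 102200 counts in lsm1a lsm1b and 8473 in Col-0 (3.68 [3.65 to 3.71]), or 2410 RPKM in lsm1a lsm1b and 188 RPKM in Col-0. In NaCl it had 93192 in the mutant and 10020 in Col-0 (3.05), and in cold 31431 in the mutant and 6094 in Col-0 (2.55). In the same 10, EPR1, an extensin-like wall protein, had 2165 in the mutant and 36 in Col-0 (5.92), AT1G03820, an E6-like gene, 1889 in the mutant and 58 in Col-0 (5.06), and AT4G35720 had 1915 in the mutant and 77 in Col-0 (4.69). The pectin lyase-like gene AT1G04680 (3147 in the mutant and 191 in Col-0, 4.11), AT1G20070 (2791 in the mutant and 211 in Col-0, 3.80) and AT1G12080, annotated as vacuolar calcium-binding (2497 in the mutant and 200 in Col-0, 3.71), followed.

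Some transcripts were close to missing in 1 genotype. AT4G04402, a two-component phosphorelay gene, had 149 counts in lsm1a lsm1b and 0 in Col-0, at least 52.7-fold higher on a floor of 3 counts per library. AT1G63540 (114 in the mutant and 0 in Col-0) was at least 40.3-fold higher and AT5G25920 (96 in the mutant and 0 in Col-0) at least 34.0-fold. AT5G10120, an EIN3-family gene, had 320 counts in the mutant and 1 in Col-0 (6.80 [5.92 to 13.72]), AT5G27010 had 192 in the mutant and 1 in Col-0 (6.07 [5.18 to 12.98]), and AT5G36900 had 166 in the mutant and 1 in Col-0 (5.86 [4.96 to 12.77]). AT2G05915 (820 in the mutant and 11 in Col-0, 6.06), AT5G55410 (719 in the mutant and 17 in Col-0, 5.33), AT2G34655 (200 in the mutant and 4 in Col-0, 5.14) and DSI-1VOC, named for its induction by desiccation (326 in the mutant and 8 in Col-0, 5.11), were next.

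On the lower side, AT5G66052 had 7 counts in lsm1a lsm1b and 7955 in Col-0 (-9.71 [-11.38 to -9.02]). AT5G66053 lies within it on the other strand and had 1 in the mutant and 2173 in Col-0 (-9.45 [-16.30 to -8.52]), so reads of this pair cannot be told apart. AT1G23960 had 3 in the mutant and 1128 in Col-0 (-7.75 [-10.75 to -6.92]), and AT5G49440 had 14 in the mutant and 1104 in Col-0 (-6.03). With 0 counts in lsm1a lsm1b, AT5G49640 (423 in Col-0) was at least 133-fold lower, the kinase gene AT1G72760 (160) at least 50.3-fold and AT5G50565 (151), which overlaps 2 other genes, at least 47.4-fold. AT5G45490 (12 in the mutant and 549 in Col-0, -5.22) and AT5G50665 (2 in the mutant and 143 in Col-0, -5.12 [-9.13 to -4.19]) were close behind. Disease resistance genes of the NBS-LRR class recurred in this group: AT5G51630 (2 in the mutant and 178 in Col-0, -5.43 [-9.45 to -4.52]), AT1G72840 (2 in the mutant and 145 in Col-0, -5.14 [-9.15 to -4.22]) and AT1G72860 (2 in the mutant and 106 in Col-0, -4.69 [-8.71 to -3.75]). AT1G72840 and AT1G72860 lie between 27 and 28 Mb of chromosome 1, as does AT1G72760, and AT5G51630 lies between 20 and 21 Mb of chromosome 5. Those windows are rich in lower genes, as given below, so family and position cannot be told apart for these genes. Of 68 NBS-LRR genes past the level limit 14 were lower (20.6%) and 6 higher (8.82%), where 3.65% of all genes were lower and 3.60% higher. Among genes with at least 100 CPM, the exporter gene AT1G61740 (1183 in the mutant and 5637 in Col-0, -2.16) had one of the 10 lowest ratios.

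Of the 36 genes at least 8-fold lower, 15 lie on chromosome 5, 13 on chromosome 1, 5 on chromosome 4, 3 on chromosome 3 and 0 on chromosome 2. These chromosomes hold 3578, 3886, 2275, 2968 and 2270 genes past the level limit, in the same order. The 1 Mb window from 20 to 21 Mb of chromosome 5 held 22 lower genes of 149 past the level limit, and the median over 121 windows was 4. The windows from 8 to 9 Mb and from 27 to 28 Mb of chromosome 1 held 15 each, of 148 and 176 genes. In the chromosome 5 window 16 genes were lower in NaCl and 31 in cold. Of the 61 genes at least 8-fold higher, 14, 10, 7, 10 and 20 lie on chromosomes 1 to 5.

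The PEG differences were set beside those of the other stresses, each with its own pair of libraries. Of the 61 genes at least 8-fold higher in PEG, 53 passed the level limit in NaCl, and 52 of these were at least 2-fold higher there. In cold 30 passed it and 22 were higher. Among all genes past the limit 5.50% were higher in NaCl and 8.26% in cold. Of the 36 genes at least 8-fold lower in PEG, 26 passed the limit in NaCl and 26 were lower, and 25 passed it in cold and 18 were lower. The shares lower among all genes were 4.46% in NaCl and 5.13% in cold. A gene near 0 in 1 genotype can pass the limit only through the other, so these counts are a description. Over the whole counts, 93 of the 542 higher genes were higher in all 3 stresses and 86 of the 550 lower genes lower in all 3. Higher in neither NaCl nor cold were 186 of the 542, and lower in neither were 318 of the 550, numbers that include genes under the level limit there.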

How the data were processed

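Leaf RNA was sequenced in 6 libraries, 1 per genotype and stress. The deposited tables hold raw counts per gene, with transcript coordinates and length; the counter is not stated in the labels. RPKM computed from total counts and those lengths is at least 1.002 in the higher PEG library for every listed gene, so weaker genes were not analysed here. TAIR10, TopHat2 and DESeq2 are named, without versions, per the submitters' processing notes. No source used here states strand use.

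Library sizes for PEG were adjusted with the TMM method of edgeR 4.0.16 under R 4.3.3. Ratios were taken as log2 CPM with a prior count of 2, with exact 95% intervals (Clopper-Pearson) computed in R. CPM is per scaled library of 18681857 (lsm1a lsm1b) and 19826362 (Col-0) counts, and RPKM for levels between genes was computed from it. DESeq2 1.42.0 size factors were an alternative. The code was tested on simulated data.

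Members and the 38 gene lists were chosen with earlier results of these data known. Named were the mutated genes, the 15 highest and 15 lowest ratios, the 10 highest and lowest at 100 CPM or more, and up to 8 counted members per list; 1 gene that this rule names is not reported here. Other names were chosen after their values were seen, for contrast within a list.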

Additional observations from a re-analysis of the deposited data

Results flagged for a closer look

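Each of the following genes was at least 2-fold apart in PEG and at least 2-fold apart on the other side in another stress, with 1 library per genotype in each; the differences between stresses were not tested, and NaCl ratios are those of the libraries as labelled. The storage albumin genes SESA1 and SESA2 had ratios of -2.29 and -1.12 in PEG and of 4.06 and 5.85 in NaCl. VSP1 had -1.33 in PEG and 1.73 in NaCl, and VSP2, its neighbour, had -1.69 in PEG and 1.15 in cold. ERF105 had 1.64 in PEG and -1.84 in NaCl, and ERF11 had 1.15 in PEG and -1.18 in NaCl. The inositol synthase gene MIPS2 had 1631 counts in lsm1a lsm1b and 3464 in Col-0 in PEG, a ratio on the 2-fold limit, and a ratio of 1.16 in NaCl. PAD3, the last enzyme of camalexin synthesis, had -1.75 in PEG and 3.21 in cold. COR27, a cold-induced clock gene, had 1.07 in PEG and -1.42 in cold.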

How the results depend on the processing

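No paired analysis was possible because each group holds 1 library, and no library could be left out. The counts of 542 higher and 550 lower genes moved by less than 1.5 times under DESeq2 size factors (531 and 558), total counts (690 and 438), prior counts of 0.5 (554 and 558) or 10 (489 and 504) and without organelle genes (544 and 537). Without the genes of chromosomes 1 and 5 they were 323 and 276, from fewer genes. A level limit of 1 CPM gave 926 higher and 806 lower genes, 20 CPM gave 257 and 295, and no limit 1002 and 839. Fold limits of 1.5 and 4 gave 1424 and 136 higher and 1493 and 87 lower genes. None of 160 named genes changed sign. With total counts UGT78D1, TT7, F3H, HAB1, MIPS2 and IAA17 came within 2-fold, and with a prior count of 10 UGT78D1, CDF1, MIPS2 and IAA17. Without chromosomes 1 and 5 the large chaperone median was 0.10, against -0.37. Low counts, as in TT8, HSP21 and AT5G66053, give wide intervals.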
